A study of Mus musculus with 6 samples.

Results

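The RNA levels of the Toll-like receptor genes Tlr1, Tlr2, Tlr4, Tlr6, Tlr7, Tlr8, Tlr9 and Tlr13, together with Cd14 and Unc93b1, were examined in mouse spleen cells sorted after co-culture with human mesenchymal stromal cells. They were chosen by gene symbol, and all 10 were found among the 21847 genes of the deposited count table. The stromal cells (MSCs), grown from cord tissue, had been loaded with Qtracker, which is a fluorescent nanocrystal dye. T cell-depleted splenocytes shared their wells for 3 days, after which CD11b positive cells were sorted. The 3 Qtracker positive libraries come from cells labelled as having engulfed MSCs, and the 3 Qtracker negative libraries from cells of the same co-cultures that held no label, so both groups had been exposed to MSCs. The labels name the cells sorted splenic macrophages, give the second gate as Ly6G negative in one field and Ly6C negative in another, and number the libraries in 3 pairs that the design text calls biological replicates. The strain, sex and age of the mice, and whether a pair came from 1 mouse, are not given in the sources used here, so each p-value reflects only how much these 6 libraries varied, in part perhaps for technical reasons.

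Toll-like receptors recognise conserved microbial molecules and signal through adaptor proteins that carry a TIR domain, chiefly MyD88 and TRIF. TLR1, TLR2, TLR4 and TLR6 act at the cell surface, where TLR2 pairs with TLR1 or TLR6 to bind bacterial lipopeptides and TLR4 binds lipopolysaccharide, which CD14 hands over. TLR7, TLR8, TLR9 and TLR13 act in endosomes, where they sense nucleic acids, TLR9 sensing DNA and the others RNA. UNC93B1 is the membrane protein that carries the endosomal receptors from the endoplasmic reticulum, and in macrophages these compartments also receive engulfed cells.

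The members lie on several chromosomes (GENCODE M21, GRCm38, the assembly of the mm10 build that the submitters name). Tlr1 (ENSMUSG00000044827, chromosome 5 from 64924679 to 64933563) and Tlr6 (chromosome 5 from 64952031 to 64960097) are neighbours on the minus strand, with 18467 bases between them. Tlr8 (chromosome X from 167242696 to 167264329) and Tlr7 (chromosome X from 167304929 to 167330558) are also neighbours on the minus strand, 40599 bases apart. Tlr13 is on chromosome X from 106143204 to 106160493, Tlr2 on chromosome 3 from 83836272 to 83841767, Tlr4 on chromosome 4 from 66827584 to 66930284, Tlr9 on chromosome 9 from 106222598 to 106226883 and Unc93b1 on chromosome 19 from 3935186 to 3949340. Cd14 is on chromosome 18. No other annotated gene overlapped any of the 10.

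Tlr1 and Tlr6 share part of their sequence, and reads that lie wholly within a shared part cannot be told apart. Of the 3322 words of 31 bases in the annotated Tlr1 transcripts 665 also occurred in another gene, as did 16.6% of those of Tlr6, and 607 words were common to both. The longest identical run of the coding sequences was 229 bases, coding bases 1468 to 1696 of Tlr1 and 1507 to 1735 of Tlr6. Its first 60 bases are shown because a read that lies wholly within the run fits both genes equally well:

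Tlr1 and Tlr6, shared coding run: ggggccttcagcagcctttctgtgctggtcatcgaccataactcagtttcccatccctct

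The counts of Tlr1 and Tlr6 are therefore estimates to that extent. Tlr4 shared 0.667% of its words with another gene, and the other 7 members shared 0.

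Upstream sequence is shown for 4 receptors: the neighbours Tlr1 and Tlr6, whose differences in pair 1 had opposite signs, and the endosomal receptors Tlr8 and Tlr9, which lay farthest up and down in pair 1 among the endosomal ones. Each is the RefSeq sequence (GRCm38.p6) before the start of the gene, on the strand of the gene, in the regions chr5:64933564-64933808, chr5:64960098-64960298, chrX:167264330-167264579 and chr9:106222348-106222597. Capitals mark GAGGAAG, a core of sites for the myeloid factor PU.1, and TGANTCA, the AP-1 motif, searched on both strands:

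Tlr1, minus strand: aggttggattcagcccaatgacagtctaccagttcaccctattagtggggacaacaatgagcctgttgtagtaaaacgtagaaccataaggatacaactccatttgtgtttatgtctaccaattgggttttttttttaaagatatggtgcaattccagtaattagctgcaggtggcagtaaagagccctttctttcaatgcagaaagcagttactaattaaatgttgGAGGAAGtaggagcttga
Tlr6, minus strand: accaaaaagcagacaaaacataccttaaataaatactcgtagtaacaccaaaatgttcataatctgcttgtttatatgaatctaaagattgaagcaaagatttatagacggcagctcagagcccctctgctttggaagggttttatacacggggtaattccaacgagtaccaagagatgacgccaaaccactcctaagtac
Tlr8, minus strand: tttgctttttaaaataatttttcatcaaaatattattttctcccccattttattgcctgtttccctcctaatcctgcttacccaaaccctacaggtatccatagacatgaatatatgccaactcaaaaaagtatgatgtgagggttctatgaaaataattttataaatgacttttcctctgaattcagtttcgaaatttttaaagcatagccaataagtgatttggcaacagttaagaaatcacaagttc
Tlr9, plus strand: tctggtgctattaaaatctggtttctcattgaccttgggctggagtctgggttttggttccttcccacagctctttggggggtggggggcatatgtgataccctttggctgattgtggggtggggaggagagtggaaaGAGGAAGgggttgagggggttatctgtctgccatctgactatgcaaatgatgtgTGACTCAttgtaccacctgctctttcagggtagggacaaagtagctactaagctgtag

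Windows of 250 bases before a start site were found for 6 of the 10 members, 8 windows in all. GAGGAAG occurred in windows of Tlr1, Tlr9 and Tlr13, that is in 3 of the 8, and in 10.6% of all 32851 mouse windows. TGANTCA occurred in 1 of the 8, that of Tlr9, and in 6.75% of all windows. Of the 5 motifs searched, the others were the interferon response element, in 1 window, that of another Tlr6 start site not shown here (2.98% of all windows), the E-box CACGTG in 1 (6.02%) and the NF-kappaB motif in 0 (1.21%). The motifs and the windows shown were picked with the values of the members in view, and a match is a description of the letters only.

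Library totals were 33943090 to 55506993 estimated counts, so even the least abundant member in the thinnest library, Tlr8 in Qtracker negative replicate 1, had 95 counts. Levels are given as CPM, that is counts put on 1 scale by library size, and differences as log2 fold changes, Qtracker positive over negative. Replicate 1 stood apart from replicates 2 and 3: the median absolute log2 difference was 0.449 to 0.454 between negative replicate 1 and the other negative libraries, and 0.286 to 0.296 for the positive group. Between replicates 2 and 3 it was 0.0549 (negative) and 0.0855 (positive), 1.59 and 3.75 times the variance of counting. They were kept as 2 libraries because they are labelled so, but this does not show that they are independent samples. With replicates 2 and 3 of each group summed, 0 of 15570 genes were called (0.00%).

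The content of the sorted cells differed between libraries, and the members have to be read beside it. Summed over 7 macrophage markers, the level was 1195, 15008 and 14851 CPM in negative replicates 1, 2 and 3, and 26449, 31917 and 34507 CPM in the positive libraries. Adgre1, which encodes the macrophage marker F4/80, was at 90.8, 196 and 190 CPM in the negative and 687, 938 and 1017 CPM in the positive libraries. Itgam, which encodes the CD11b of the gate, was at 259.6 CPM in negative replicate 1 and at 1820 to 2716 CPM in the other 5 libraries. Macrophage markers were thus detected in all 6 libraries and were lowest in negative replicate 1. Most of their sum was Lyz2, at 712, 11503 and 11432 CPM in the negative and 19347, 24557 and 27080 CPM in the positive libraries. These levels do not give the share of macrophages among the cells of a library.

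Summed over 7 B cell markers, the level was 17492, 7101 and 7152 CPM in the negative and 720, 778 and 722 CPM in the positive libraries, so it was highest in negative replicate 1. Summed over 8 neutrophil markers, the level was 2387, 64033 and 64230 CPM in the negative and 1198, 1313 and 1426 CPM in the positive libraries. Most of the positive sum was Mmp8, the listed marker that was not called lower. Mmp8 was at 98.8, 887 and 948 CPM in the negative and 1004, 694 and 783 CPM in the positive libraries. Ly6g itself was listed at 0 in positive replicate 2 and at 0.0264 and 0.38 CPM in the other positive libraries. Of the macrophage markers 3 of 7 were called higher, of the neutrophil markers 7 of 8 lower and of the B cell markers 6 of 7 lower. In sorted bulk cells, a smaller share of cells of one type and less RNA per cell cannot be told apart.

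**Figure D1:**
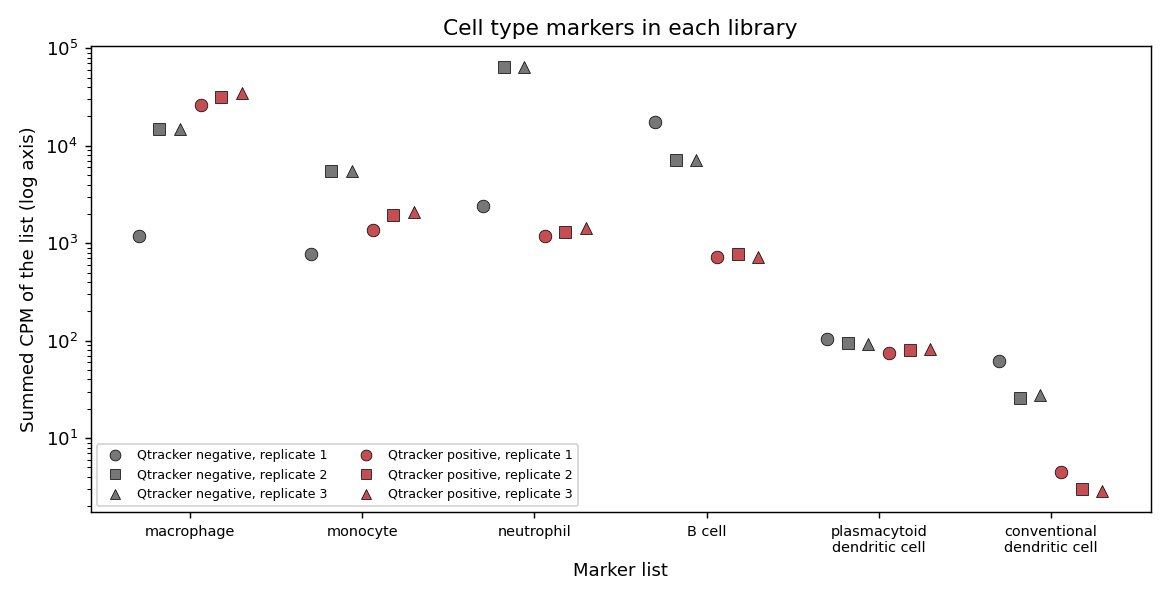
Summed CPM (log axis) of the tested genes of 6 lists of cell type markers in each of the 6 libraries. Grey symbols stand for Qtracker negative, red for positive and the symbol shape for the replicate. Negative replicate 1 has the lowest macrophage sum (1195 CPM) and the highest B cell sum (17492 CPM).

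Of the 10 members, all passed the filter on low counts, and 2 rose in Qtracker positive libraries: Tlr7, a receptor for single-stranded RNA, by 1.58 ± 0.13 (SE) on the log2 scale, and Tlr6, the lipopeptide receptor that pairs with TLR2, by 0.97 ± 0.15. Their adjusted p-values were 0.00977 and 0.0222 (edgeR quasi-likelihood test with the pair as a block, Benjamini-Hochberg adjusted over 14605 genes). No member was called lower, and the number lower was also 0 by DESeq2 (25.1% of genes lower) and limma-voom (19.5%). Over all tested genes 34.9% were called, 18.5% higher and 16.3% lower, so 2 of 10 is close to the background. The median log2 fold change was 1.34 over the 10 members and -0.01 over all genes. Of the 8 members without a call, 4 had an adjusted p between 0.05 and 0.1 and the other 4 had one of at least 0.1.

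The count of calls depended on which replicates were in the fit. Without replicate 1, 9 of the 10 members were called higher, all but Tlr9, against 37.1% of the 14932 genes then tested. In either direction 72.9% of genes were called there, in a fit on replicates 2 and 3, which lie close together. Without replicate 2, 0 members were called, with 6 at an unadjusted p under 0.05, against 0.917% of genes called higher. Without replicate 3, 0 were called, with 5 at an unadjusted p under 0.05, and 0.00% of all genes were called. With all libraries, DESeq2 called 7 members higher (23.4% of genes), limma-voom 4 (20.6%) and edgeR without the block 3 (19.9%). Without only negative replicate 1 the number was 7 (26.7% of genes), and without only positive replicate 1 it was 4 (17.6%).

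**Figure D2:**
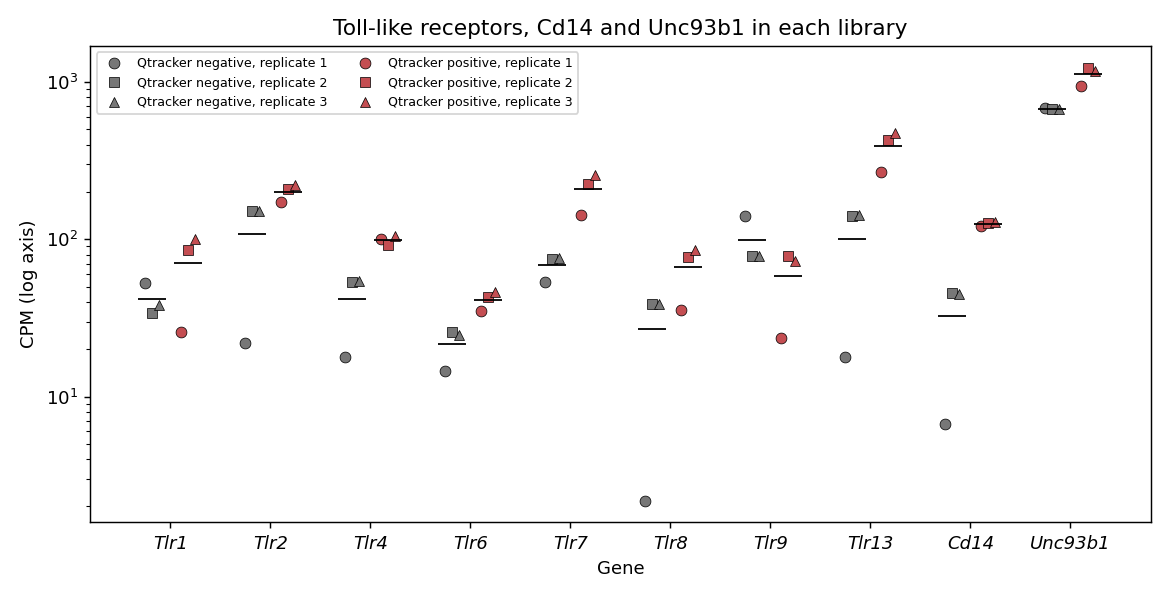
CPM (log axis) of each member in each library, grey for Qtracker negative and red for Qtracker positive, with symbol shape for the replicate and a bar for the group mean. Negative replicate 1 lies lowest of its group for 7 members, and highest for Tlr1, Tlr9 and Unc93b1.

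Group ranges did not overlap for 7 members, all higher in Qtracker positive cells, where 30.0% of tested genes were so separated. They were Tlr2, Tlr4, Tlr6, Tlr7, Tlr13, Cd14 and Unc93b1. Tlr1, Tlr8 and Tlr9 overlapped. No member was separated in the lower direction, as 29.4% of genes were. In 8 members every pair had the higher value in its positive library, as in 36.8% of tested genes, and Tlr9 was lower in all 3 pairs, as in 36.1% of them.

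Among the surface receptors, Tlr6 had the steadiest difference. It was at 14.5, 25.5 and 24.6 CPM in negative replicates 1, 2 and 3 and at 34.8, 42.8 and 46.0 CPM in the positive ones. All positive libraries were above all negative ones, and the log2 difference was 1.26, 0.74 and 0.90 in pairs 1, 2 and 3. The call was kept under 3 other scalings, 2 other filters, DESeq2 and limma-voom, and lost without replicate 2 or 3.

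Tlr2, the shared partner of TLR1 and TLR6, was at 22.0, 150.3 and 151 CPM in the negative libraries and at 174, 209 and 221 CPM in the positive ones. The groups did not overlap, but negative replicate 1 stood far below the rest. The log2 difference was 2.98 in pair 1 and only 0.47 and 0.55 in pairs 2 and 3, so that the fitted value of 1.29 ± 0.64 did not pass (adjusted p = 0.19 by edgeR). Without replicate 1 it was 0.52 (adjusted p = 0.000183 by edgeR).

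Tlr4, the lipopolysaccharide receptor, likewise had its largest difference in pair 1, at lower CPM than Tlr2. Its levels were 17.9, 53.3 and 54.3 CPM in the negative and 100.3, 91.9 and 105 CPM in the positive libraries, which were level with each other. The fitted difference was 1.39 ± 0.42 (adjusted p = 0.0723 by edgeR), from 2.48 in pair 1 and 0.78 and 0.95 in pairs 2 and 3. It was 0.88 without replicate 1 (adjusted p = 6.63e-05 by edgeR).

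Cd14 encodes the co-receptor that presents lipopolysaccharide to TLR4. It was at 6.67, 45.6 and 44.8 CPM in the negative and at 121, 127 and 129 CPM in the positive libraries. The positive libraries were nearly equal, and again negative replicate 1 was the lowest. The fitted difference of 2.33 ± 0.71 did not pass (adjusted p = 0.0729 by edgeR), with 4.17 in pair 1 and 1.48 and 1.53 in pairs 2 and 3. Without replicate 1 it was 1.52 (adjusted p = 3.71e-06 by edgeR), the lowest adjusted p of the 10 in that setting.

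Tlr1 differed in direction between the pairs. It was at 53.0, 33.8 and 38.2 CPM in the negative and at 25.7, 85.6 and 100.2 CPM in the positive libraries. In pair 1 the positive library was lower, by -1.04 on the log2 scale, and in pairs 2 and 3 it was higher, by 1.34 and 1.39. Such a split, down in pair 1 and up in the other two, was seen in 9.07% of tested genes. The fitted difference was 0.60 ± 0.62 (adjusted p = 0.483 by edgeR), and 1.38 without replicate 1 (adjusted p = 6.51e-06 by edgeR). The neighbouring Tlr6 did not share the fall in pair 1, although 16.6% of its sequence words occur in another gene, nearly all in Tlr1.

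**Figure D3:**
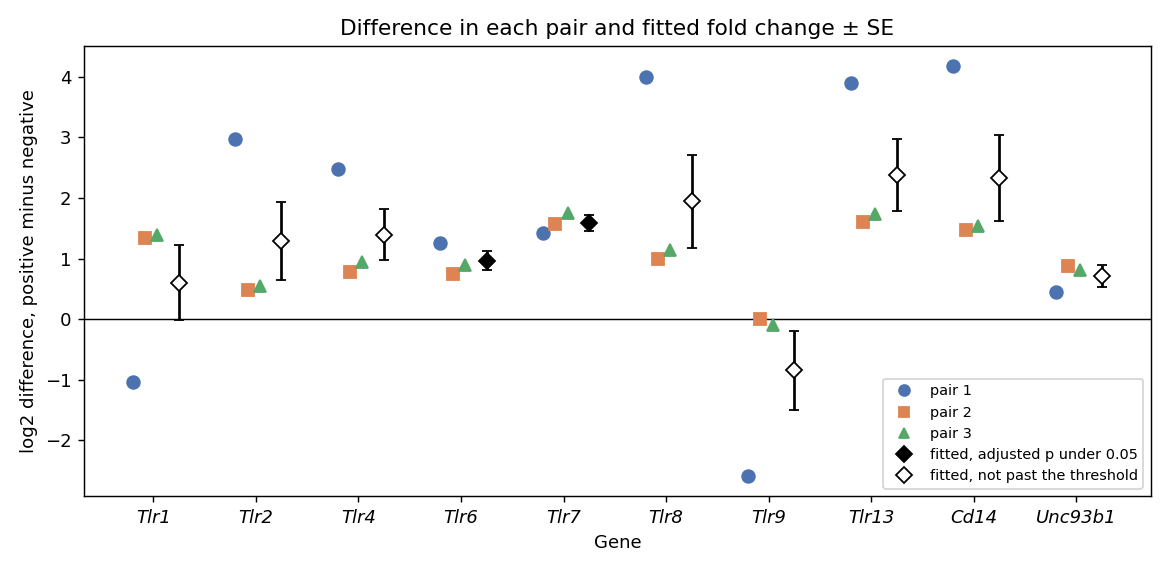
Log2 difference in CPM, positive minus negative library, in pairs 1 (circles), 2 (squares) and 3 (triangles) for each member, with the fitted fold change and its SE as a diamond, filled where the adjusted p was under 0.05. The 3 pairs agree closely for Tlr7 (1.41 to 1.76), while Tlr1 and Tlr9 lie lowest in pair 1 and Tlr8, Tlr13 and Cd14 highest.

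Of the endosomal receptors, Tlr7 had the lowest p of all members. Its levels were 53.8, 74.8 and 76.3 CPM in the negative libraries and 144, 223 and 258 CPM in the positive ones, with no overlap. Pairs 1, 2 and 3 gave 1.41, 1.58 and 1.76, so this was the member least moved by replicate 1, and without that replicate the value was 1.68. On the authors' normalized values, pair 1 gave only 0.58, against 1.34 and 1.16, and the fitted difference was 1.03 (adjusted p = 0.0288 by limma). The factor between the 2 tables, relative to the median factor of each library, ran from 0.703 to 1.68 for Tlr7 over the 6 libraries, a ratio of 2.39 that exceeded that of 96.8% of well-counted genes. For Tlr4 the ratio was 2.01 and for Tlr8 1.68, and for Tlr1, Tlr2, Tlr6, Tlr9, Tlr13 and Cd14 it was 1.

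Tlr8, the X-linked neighbour of Tlr7, was at 2.18, 38.9 and 39.0 CPM in the negative and at 35.4, 77.5 and 86.1 CPM in the positive libraries. Positive replicate 1 lay just below negative replicates 2 and 3, so the groups overlapped. The fitted difference was 1.95 ± 0.77 (adjusted p = 0.122 by edgeR), from 4.0 in pair 1 and 0.99 and 1.14 in pairs 2 and 3. Without replicate 1 it was 1.08 (adjusted p = 3.26e-05 by edgeR). In pair 1 Tlr7 was at 1.41 and Tlr8 at 4.0, and this difference between the neighbouring genes was not tested.

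Tlr13, the mouse receptor for bacterial ribosomal RNA, had a fitted difference of 2.38 ± 0.60 that narrowly missed the threshold (adjusted p = 0.051 by edgeR). It was at 17.8, 141 and 142 CPM in the negative and at 268, 428 and 474 CPM in the positive libraries, without overlap. The difference was 3.90 in pair 1 and 1.60 and 1.74 in pairs 2 and 3. The threshold was passed with upper quartile scaling (adjusted p = 0.0487 by edgeR), limma-voom (0.0347), the authors' normalized values (0.0376) and DESeq2 (9.74e-05). By edgeR it was also passed without replicate 1 (5.19e-06) or only negative replicate 1 (0.00827). It was missed by edgeR with median-of-ratios scaling (0.0532), library totals (0.0505), no filter (0.0517) and a stricter filter (0.0536). Other misses were without the block (0.0802), without replicate 2 (0.0966), replicate 3 (0.115) or only positive replicate 1 (0.116), and with replicates 2 and 3 summed (0.105).

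Tlr9, the receptor for unmethylated CpG DNA, was the member whose fitted difference was negative. It was at 141, 78.4 and 78.0 CPM in the negative and at 23.4, 78.2 and 72.8 CPM in the positive libraries. Replicates 2 and 3 were at almost the same level in both groups, and the difference lay in pair 1, at -2.58, against 0.00 and -0.10. The fitted value of -0.85 ± 0.66 did not pass (adjusted p = 0.362 by edgeR), nor did the value of -0.04 without replicate 1 (adjusted p = 0.463 by edgeR). B cells also express Tlr9, and the summed B cell markers were likewise highest in negative replicate 1, at 17492 CPM. In the positive libraries that sum was nearly level, at 720 to 778 CPM, although Tlr9 there was at 23.4 CPM in replicate 1 and 78.2 and 72.8 CPM in the others. The part of B cells in the Tlr9 and Tlr1 values was not tested.

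Unc93b1, the chaperone of the endosomal receptors, was nearly level among the negative libraries. It was at 689, 675 and 671 CPM in the negative libraries and at 944, 1236 and 1176 CPM in the positive ones. The groups did not overlap, and here negative replicate 1 did not stand below the others. The fitted difference was 0.71 ± 0.18 (adjusted p = 0.0537 by edgeR), with 0.45, 0.87 and 0.81 in pairs 1, 2 and 3. It passed without the pair as a block (adjusted p = 0.0271 by edgeR), with limma-voom (0.0378), with DESeq2 (0.00303) and without replicate 1 (2.58e-05). By edgeR it also passed without only negative replicate 1 (0.0103) or only positive replicate 1 (0.0191). It did not pass by edgeR with median-of-ratios (0.0591) or upper quartile scaling (0.105), no filter (0.0573) or a stricter filter (0.0596). On the authors' normalized values adjusted p was 0.0801 by limma. Without replicate 2, without replicate 3 and with replicates 2 and 3 summed it was 0.393, 0.39 and 0.381 by edgeR. The fitted difference was 0.36 with library totals as the only scaling (adjusted p = 0.257 by edgeR). In that setting the median of all genes moved to -0.36.

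The macrophage markers had a median log2 difference of 4.56, 1.74 and 1.72 in pairs 1, 2 and 3, and the 10 members one of 1.95, 0.93 and 1.05. Pair 1 had the largest difference for 6 members (Tlr2, Tlr4, Tlr6, Tlr8, Tlr13 and Cd14). The other 4 did not share this: in pair 1 Tlr7 (1.41) and Unc93b1 (0.45) had their smallest difference, and Tlr1 (-1.04) and Tlr9 (-2.58) were negative. Csf1r, the growth factor receptor of macrophages, gave 3.90, 1.39 and 1.43, next to 4.0, 0.99 and 1.14 for Tlr8 and 3.90, 1.60 and 1.74 for Tlr13. The macrophage markers did not all have this profile. Adgre1 gave 2.92, 2.26 and 2.42, Cd68 gave 5.38, 3.63 and 3.56, and Itgam gave 3.39, -0.32 and -0.27. The B cell median was -4.70, -2.74 and -2.87, and the neutrophil median -3.53, -6.67 and -6.43. The part of cell content in the differences of the members was not tested.

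Levels of different genes were compared as CPM per kilobase of merged exons. In Qtracker negative libraries Unc93b1 was first by far, at 224 ± 3.11 (SD, n = 3), above 98.4% of the 14487 tested genes with a known length. Tlr2 (35.7 ± 24.6), Tlr9 (28.5 ± 10.4), Tlr13 (23.3 ± 16.6), Cd14 (18.7 ± 12.8), Tlr7 (16.7 ± 3.07) and Tlr1 (12.5 ± 3.00) followed, with neighbouring ranges that overlapped down to Tlr1. Tlr4 (7.53 ± 3.73), Tlr8 (7.44 ± 5.92) and Tlr6 (5.79 ± 1.64) were at the bottom, and their ranges overlapped each other.

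In Qtracker positive libraries Unc93b1 was again first, at 369 ± 51.0, and Tlr13 came next, at 90.6 ± 25.1, above 95.6% of genes. Cd14 (72.7 ± 2.53), Tlr2 (66.7 ± 8.09) and Tlr7 (51.0 ± 14.4) followed, with overlapping ranges down to Tlr7. Below a gap stood Tlr1 (21.1 ± 11.8), Tlr8 (18.5 ± 7.56), Tlr4 (17.8 ± 1.20), Tlr9 (16.7 ± 8.68) and Tlr6 (11.1 ± 1.54), whose neighbouring ranges overlapped. Ranks of neighbours with overlapping ranges are not separated by these data, and the means include replicate 1, without which the Tlr9 difference was -0.04.

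**Figure D4:**
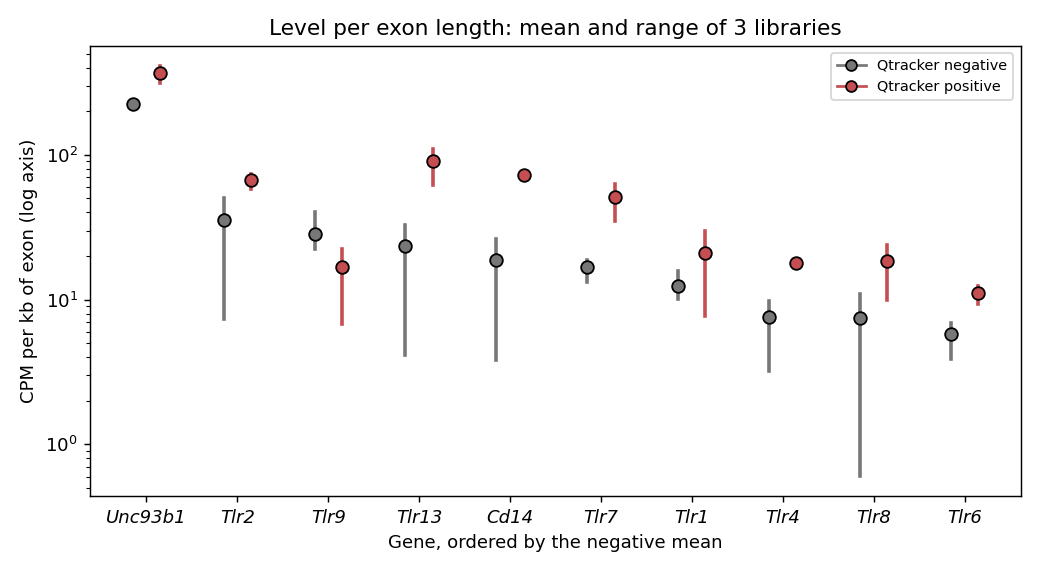
CPM per kilobase of merged exons (log axis) of each member, as the mean (point) and range (line) of 3 libraries, grey for Qtracker negative and red for positive. Unc93b1 is highest in both groups, and Tlr9 is the member whose positive mean (16.7) lies below its negative mean (28.5).

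The 4 other Toll-like receptor genes of the table were scarce. Tlr12, which senses profilin of apicomplexan parasites together with TLR11, fell from 6.47, 2.26 and 2.28 CPM in the negative to 0.661, 0.407 and 0.38 CPM in the positive libraries, a log2 difference of -2.78 ± 0.33 (adjusted p = 0.0149 by edgeR). The 4 tested markers of conventional dendritic cells, which express Tlr12, summed to 62.6, 26.0 and 27.5 CPM in the negative and 4.47, 2.97 and 2.85 CPM in the positive libraries. Of these markers 3 fell, 1 did not pass (0.43 ± 0.71 on the log2 scale) and 1 was too low to test. The 5 tested markers of plasmacytoid dendritic cells summed to 105, 94.1 and 91.9 CPM in the negative libraries. In the positive libraries they summed to 75.1, 79.5 and 82.0 CPM, and 2 of them were called lower and 1 higher. The part of either cell type in the Tlr12 value was not tested. Tlr5, the flagellin receptor, was at 0.688, 12.9 and 13.5 CPM in the negative and 0.423, 14.3 and 15.1 CPM in the positive libraries, so it followed the replicate number and not the group (-0.07 ± 0.24, adjusted p = 0.84 by edgeR). Tlr3, the receptor for double-stranded RNA, was listed at 0 in negative replicate 2 and positive replicate 1 and reached at most 2.22 CPM. Tlr11 had 1 to 7 counts per library and was not tested.

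Other genes of the pathway were taken from 3 lists by role. Of 15 accessory and processing genes 8 rose and 0 fell, with a median log2 fold change of 0.88. Of all tested genes 18.5% were called higher and 16.3% lower. Of 24 adaptors, kinases and effectors 2 rose and 1 fell, with a median of 0.09. Of 12 negative regulators 1 rose and 2 fell, with a median of -0.11. Over all 51 pathway genes 11 rose, 3 fell and 37 did not pass, so the rises were near the share over all genes and the falls below it. Of the 12 pathway genes named by the lowest p-values 10 were called, and all 10 calls, like that of Tlr12, were lost without replicate 2 and without replicate 3, where few or no genes of the whole table were called.

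The 4 accessory genes with the lowest p-values included 3 endosomal and lysosomal proteases. Ctsb, a lysosomal cysteine protease, was at 511, 1138 and 1118 CPM in the negative and 21064, 21434 and 22775 CPM in the positive libraries, a log2 difference of 4.65 ± 0.47. Lgmn, the asparagine endopeptidase that can cleave TLR7 and TLR9, was at 217, 447 and 434 CPM against 4437, 4951 and 5239 CPM, a difference of 3.81 ± 0.32. For Ctss, another cathepsin of antigen-presenting cells, the values were 396, 1010 and 996 CPM against 5434, 6982 and 7651 CPM (3.17 ± 0.35). Slc15a3, a transporter of the endolysosome, was at 39.5, 128 and 126 CPM against 562, 644 and 597 CPM (2.79 ± 0.43). For these 4 genes the positive libraries lay far above the negative ones, and adjusted p by edgeR was 0.00977 to 0.0211.

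The other 4 accessory genes that rose, named here after their values were seen, were the scavenger receptor Cd36, a co-receptor of TLR2 with TLR6, the receptor chaperones Hsp90b1 (gp96) and Cnpy3 and the trafficking subunit Ap3b1. Cd36 was listed at 0 in negative replicate 1, at 0.0896 and 0.945 CPM in replicates 2 and 3 and at 7.14, 17.5 and 18.7 CPM in the positive libraries, so its fitted difference of 6.24 ± 1.14 rests on few negative counts. Hsp90b1 was at 555, 535 and 531 CPM in the negative and 1047, 913 and 981 CPM in the positive libraries (0.86 ± 0.15). Cnpy3 rose by 0.55 ± 0.11 and Ap3b1 by 0.66 ± 0.15. Ly96, which encodes the MD-2 subunit of the lipopolysaccharide receptor and was also picked after its values were seen, was at 1.90, 3.20 and 2.49 CPM against 3.07, 8.27 and 10.2 CPM (1.37 ± 0.35, adjusted p = 0.0513 by edgeR). Lbp, an accessory gene picked in the same way, had a negative fitted difference of -1.76 ± 0.76 (adjusted p = 0.147 by edgeR). It was at 20.1, 166 and 164 CPM against 23.1, 27.3 and 25.8 CPM, with 0.20, -2.60 and -2.66 in pairs 1, 2 and 3.

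Among signalling genes, Pik3ap1, which encodes the adaptor BCAP, rose from 146, 163 and 164 CPM to 285, 350 and 334 CPM, by 1.03 ± 0.12 (adjusted p = 0.0147 by edgeR). Irak2, a kinase of the MyD88 complex, rose by 0.57 ± 0.13, a call that was lost with upper quartile scaling (adjusted p = 0.0558), library totals (0.19), no filter (0.0539) and the authors' normalized values (0.0868). Traf3, a ubiquitin ligase downstream of the adaptors, fell by 0.47 ± 0.11 (adjusted p = 0.0466 by edgeR, and 0.0874 with no filter). Btk, a kinase also active in B cells, had a log2 difference of -0.59 ± 0.15 that did not pass (adjusted p = 0.0553 by edgeR). Myd88, the common adaptor, picked after its values were seen, was at 52.0, 148 and 149 CPM against 102, 105 and 107 CPM, with a difference of 0.96 in pair 1 and -0.50 and -0.48 in pairs 2 and 3 (-0.01 ± 0.37, adjusted p = 0.979 by edgeR).

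The negative regulators did not move one way. Irak3, the inhibitory kinase IRAK-M, fell by 0.61 ± 0.10, with -0.60, -0.61 and -0.62 in the 3 pairs (adjusted p = 0.0235 by edgeR). It did not pass without the pair as a block (adjusted p = 0.159), and without only positive replicate 1 the value was -0.38 (adjusted p = 0.341). Tnfaip3, which encodes the ubiquitin-editing protein A20, rose by 0.55 ± 0.10, with 0.53, 0.57 and 0.54 in the pairs (adjusted p = 0.0284 by edgeR). That call was lost without the block (0.191), with library totals (0.294), with upper quartile scaling (0.0666) and on the authors' normalized values (0.108), and without only positive replicate 1 the value was 0.29 (adjusted p = 0.434). Sigirr, an inhibitory receptor of the family, fell from 20.6, 8.22 and 7.39 CPM to 0.608, 0.896 and 2.18 CPM, a log2 difference of -3.29 ± 0.79 (adjusted p = 0.0468 by edgeR). Cyld, a deubiquitinase, had a difference of -0.75 ± 0.22 that did not pass (adjusted p = 0.0698 by edgeR).

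**Figure D5:**
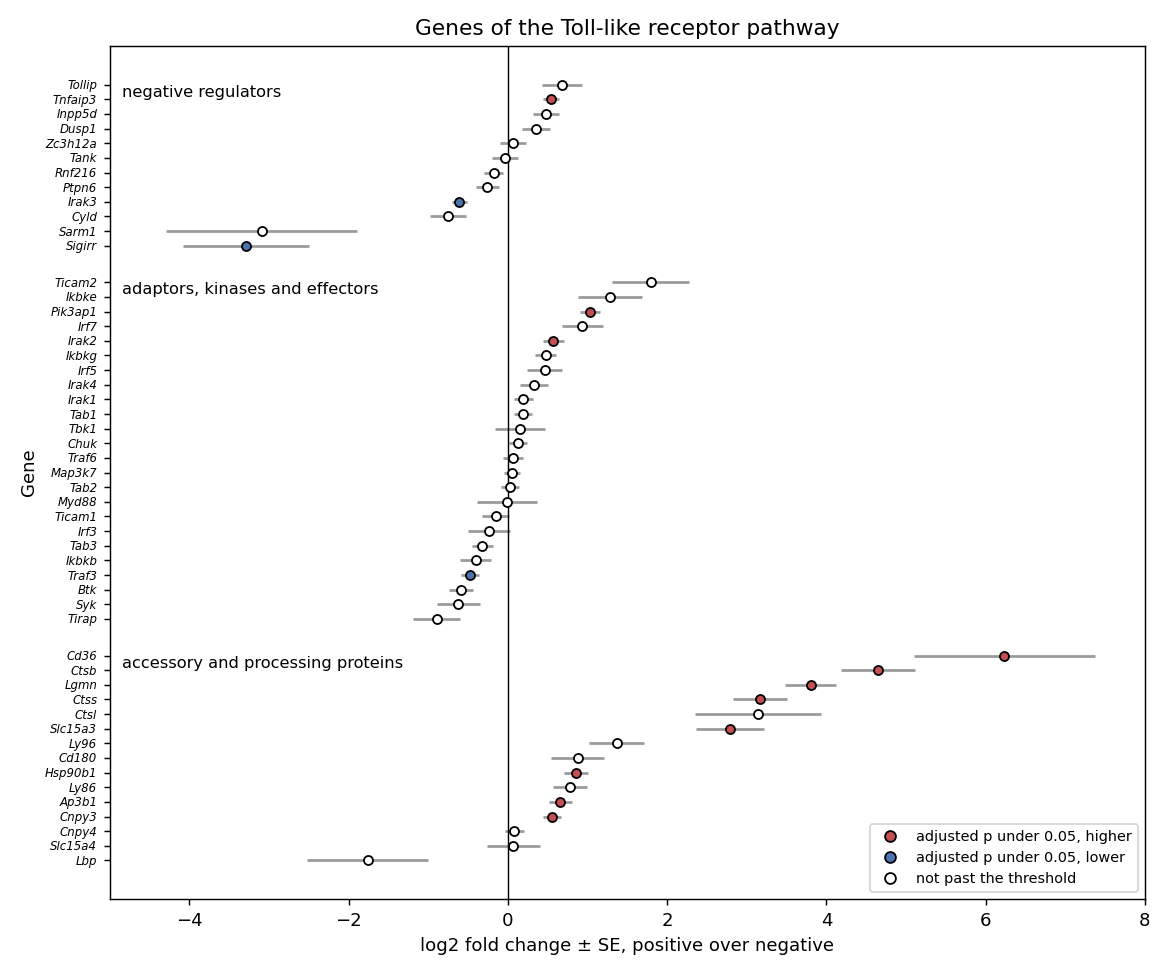
Log2 fold change and its SE, Qtracker positive over negative, for the 51 pathway genes in 3 lists, red where called higher, blue where called lower and white where the adjusted p was not under 0.05. Red points number 8 of 15 in the accessory and processing list, 2 of 24 in the adaptor list and 1 of 12 among negative regulators.

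The genes with the most similar profiles over the 6 libraries were found for each member as the smallest root mean square distance between mean-centred log2 CPM, among 8929 genes. For Tlr7 they were Tent5c (0.0894), Qk (0.132) and Sod2 (0.136), and for Tlr6 they were Daam1 (0.038), Tmed7 (0.0458) and Uevld (0.0495). Closest to Tlr13 were Cd300a (0.0771), Itgb5 (0.0947) and Nxpe5 (0.0997), and closest to Cd14 were Pde7b (0.0748), Ptger2 (0.101) and Thbs1 (0.143). Tnfrsf1a (0.0705), Rab32 (0.096) and Stard8 (0.112) lay nearest to Tlr2, and Atp6v1e1 (0.0803), Ctbs (0.0825) and Cyba (0.0855) nearest to Tlr4. Tlr8 had Apoc2 (0.157), Ifi204 (0.16) and Csf1r (0.207) as neighbours, and Unc93b1 had Extl3 (0.0377), Abl1 (0.0445) and 6030458C11Rik (0.0454). By the distance of the third neighbour, Tlr1 and Tlr9 had the least matched profiles: Usp35 (0.202), Pgap1 (0.226) and Wdr59 (0.241) for Tlr1, and Ifi213 (0.143), Zc3h12d (0.184) and Col11a2 (0.237) for Tlr9. These distances share the same 6 libraries and are a description.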

How the data were processed

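Gene-level estimated counts, whole in the deposited raw table, were the input. The tools named in the submitters' processing notes are FastQC and Salmon, with mm10 as the build; the sources used here do not give their versions, the annotation or the use of strand in counting. What the authors deposited as normalized is a signal equal to each count times a gene- and library-specific factor of unstated formula, and served only as an alternative. GENCODE M21 supplied missing symbols.

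After filterByExpr (at least 10 counts, total at least 15) 14605 genes were tested with edgeR 4.0.16 (R 4.3.3), using TMM scaling and the quasi-likelihood F test. The pair was a block, and genes with an adjusted p under 0.05 were called. SEs came from the F statistic. Log2 CPM used a prior count of 2. The pairing comes from the design text; deviations of same-numbered libraries correlated at 0.198, 0.0769 and 0.158 across genes, so the data alone did not establish it. On simulated data with 200 changed genes, the median estimates had the right sign and lay near the true fold changes. The fit called no gene in the set with smaller folds and only part of the changed genes in the set with larger folds. In the real data 34.9% of genes were called, so the simulated shares of calls do not carry over to them. The lack of a call does not show equal levels. Alternatives were other scalings and filters, DESeq2 1.42.0, limma 3.58.1, no block, replicates left out, and replicates 2 and 3 summed.

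Members and lists were chosen with earlier results of these data known. Named genes were the members, the other Toll-like receptors, the 4 lowest p-values of each pathway list and fixed markers; those named outside this rule are marked. A fixed marker gene is not reported here.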

Additional observations from a re-analysis of the deposited data

How the results depend on the processing

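Each member kept the sign of its fitted difference under the 13 alternatives set at the outset and the 2 chosen after seeing the data. The number of members called higher was 2 with all libraries, 7 by DESeq2, 4 by limma-voom and 0 with replicates 2 and 3 summed (6 at an unadjusted p under 0.05, and 0.00% of all genes called), and it ran from 0 to 9 when a pair was left out. With only negative replicate 1 left out and no block it was 7, and with only positive replicate 1 left out it was 4. Without the replicate block in the pairing 3 members were called (Tlr6, Tlr7 and Unc93b1). Pathway genes called higher were 11, against 7 with library totals, 17 by DESeq2, 0 with replicates 2 and 3 summed, 0 to 31 with a pair left out, and 18 and 17 without negative or positive replicate 1. Pathway genes called lower were 3, against 6 with library totals, 8 by DESeq2, 5 on the normalized table, 5 without the replicate block, 0 with replicates 2 and 3 summed, 0 to 13 with a pair left out and 9 without negative replicate 1. The share of all genes called moved with these counts in most settings. Higher calls were 18.5% of genes, against 10.8% with library totals, 23.4% by DESeq2, and 37.1%, 0.917% and 0.00% without replicates 1, 2 and 3. They were 26.7% without only negative replicate 1 and 17.6% without only positive replicate 1. Lower calls were 16.3%, against 22.7% with library totals, 25.1% by DESeq2, 17.3% on the normalized table and 20.9% without the block. They were 35.8%, 1.18% and 0.00% without replicates 1, 2 and 3, and 25.5% without only negative replicate 1. Signs turned for Tlr3, Tlr5 and Itgam. Tlr3 was at -1.96 without replicate 2, -0.24 without replicate 3, 2.49 without replicate 1 and -1.65 with replicates 2 and 3 summed, against 0.73. Tlr5 was at 0.10 by limma-voom, 0.14 without the block, 0.17 without replicate 1, 0.73 without positive replicate 1 and -0.39 without negative replicate 1, against -0.07. Itgam was at -0.28 without replicate 1 (adjusted p = 0.00178 by edgeR), 1.56 without replicate 2 and -0.06 without negative replicate 1, against 0.79. The settings with a pair left out or summed have fewer libraries, and the causes of the other changes were not tested. With 95 counts or more for each member in each library, depth limited their values less than replicate spread did.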
